A study of Mus musculus with 4 samples.

Results

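Mesothelial cell genes are described here in C57BL/6J mice, in the membrane that lines the abdominal wall (parietal peritoneum). The set holds 33 named genes known from mesothelial cells, of 18193 genes measured, and it was chosen by name. Transgenic mice carried a SAP-BNP-Tg construct, in which the serum amyloid P promoter drives brain natriuretic peptide, and were compared with wild-type mice. Mice of both genotypes were injected intraperitoneally with chlorhexidine gluconate, an antiseptic used to irritate the peritoneum, or with ethanol/PBS, called vehicle here. Chlorhexidine was given at 0.1% in 15% ethanol and 85% PBS, at 0.01 mL per gram of body weight, 3 times per week for 21 days. The labels give no ethanol percentage, volume or schedule for the vehicle. The groups were transgenic with chlorhexidine, transgenic with vehicle, wild type with chlorhexidine and wild type with vehicle, each measured on 1 Affymetrix array. The labels do not give the mice per array or their age.

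Mesothelial cells form the flat single-layered sheet that covers the peritoneal cavity. They carry simple-epithelial keratins and surface proteins such as mesothelin beside mesenchymal proteins such as vimentin, and their developmental regulator is the transcription factor Wt1. After peritoneal injury they are known to detach or to take on mesenchymal features, in which epithelial genes are lost and mesenchymal genes are gained.

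Values are signals in arbitrary units after scaling the arrays to a common trimmed mean. Each probe set also carries the authors' detection call, Present, Marginal or Absent. Calls of higher or lower needed a 2-fold difference, a log2 difference of 1 or more in size. The brighter array also had to be Present for the gene, with a signal at or above the 25th percentile of its Present probe sets. With 1 array per group there was no replicate check and no test, and the number of arrays limits the precision. Folds against an array without a Present call are lower bounds, and levels of different genes are not compared. In a bulk tissue sample, fewer mesothelial cells and less RNA per cell cannot be told apart.

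Of the 33 genes, 26 were Present in transgenic chlorhexidine peritoneum, 27 in transgenic vehicle, 27 in wild-type chlorhexidine and 30 in wild-type vehicle peritoneum. Over all probe sets the Present calls ran from 50.5% to 55.1%. Of the 30 genes Present on at least 1 array, 26 were Present on all 4, where 81.6% of detected genes were. They included Msln, Upk3b, Krt19, Wt1 and Lrrn4, while Krt7, Nkain4 and Cdh1 were Present on the wild-type vehicle array only. Dsp, Itln1 and Calb2 were Absent on all 4 arrays, with signals up to 7.61, 2.54 and 2.34. Control probe sets set the wild-type vehicle array apart: mean 18S rRNA signal was 81.5 to 108 on the other 3 arrays and 1052 there. For beta-actin, 3-prime over middle signal was 2.23 to 2.84 on those 3 and 5.81 there. The 3-prime over 5-prime signal of beta-actin differed less, at 1.07 to 1.15 on those 3 and 1.22 there. The part of these qualities in the results was not tested, and values against the other vehicle array are given below. Nppb, which encodes the transgene's hormone, was Absent on all 4 arrays, so its signal does not check the genotype labels.

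**Figure D1:**
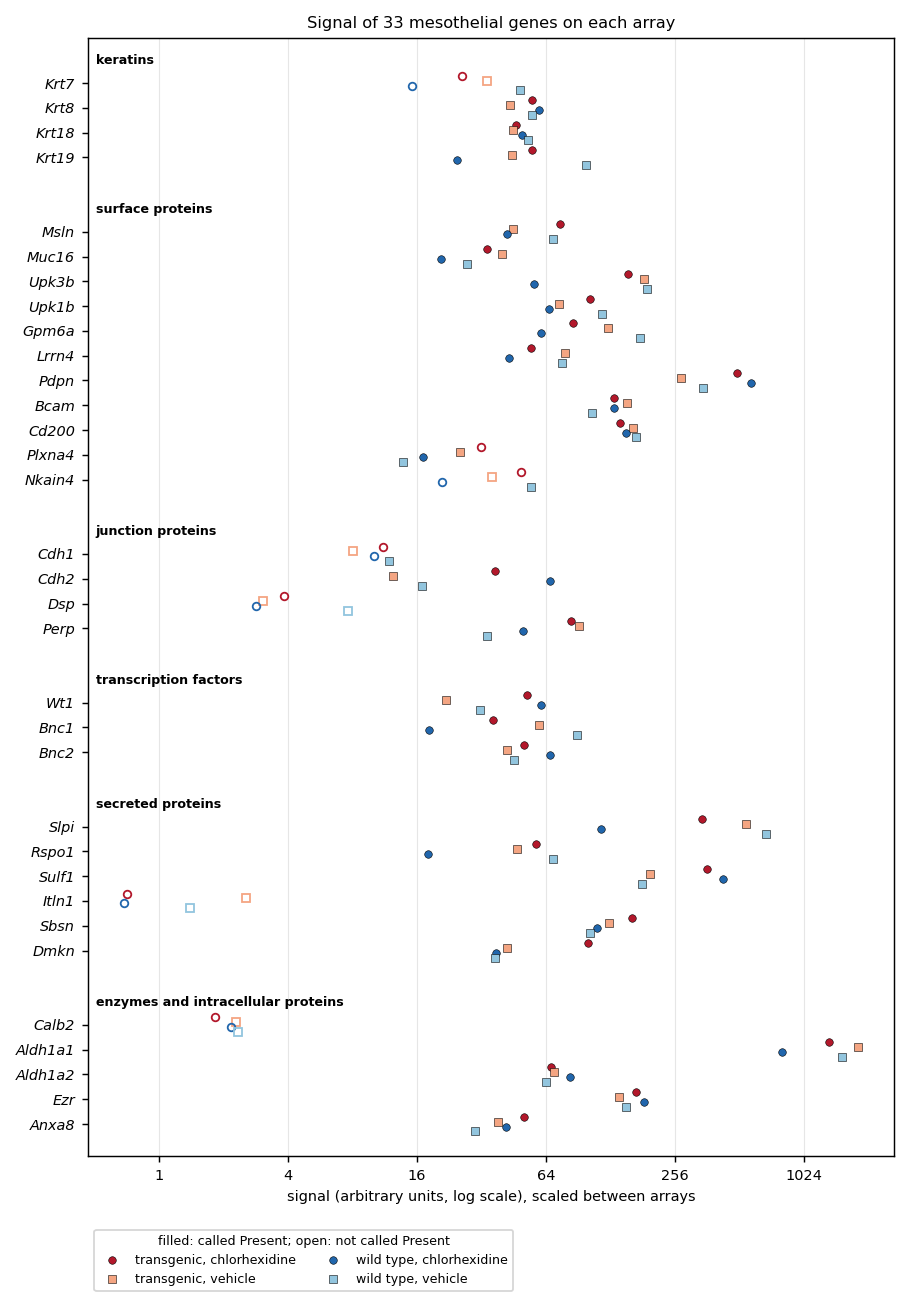
Signal of each of the 33 mesothelial genes on the 4 arrays, on a log axis in arbitrary units, with filled points for Present calls and open points for the others; each point is 1 array. Krt19, Upk3b, Bnc1, Slpi and Rspo1 have the wild-type chlorhexidine array as their lowest point, while Cdh2, Wt1 and Sulf1 have both chlorhexidine arrays above both vehicle arrays.

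With chlorhexidine, some mesothelial genes were higher and others lower. In wild type, 2 of the 30 detected genes were called higher and 8 lower, where 8.22% and 4.93% of 12754 detected genes were called. In transgenic mice, 3 were called higher, against 3.81% of detected genes, and 0 lower, against 1.40%. The median log2 difference of the 30 genes was 0.29 in transgenic mice (all detected genes 0.00) and -0.12 in wild type (all detected genes 0.00). Over all 33 genes it was 0.28 and -0.15 in the same order. With the deposited scaling the wild-type median was 0.13, beside 0.25 for all detected genes. These medians hide genes that went opposite ways, so the genes are given below by role. The 8 genes called lower in wild type were Krt7, Krt19, Upk3b, Gpm6a, Nkain4, Bnc1, Slpi and Rspo1. With a pseudocount of 32, Krt7 and Nkain4 were not called in wild type, at -0.77 and -0.71. The 3 transgenic calls, Cdh2, Wt1 and Dmkn, were lost with it too, at 0.64, 0.65 and 0.84.

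**Figure D2:**
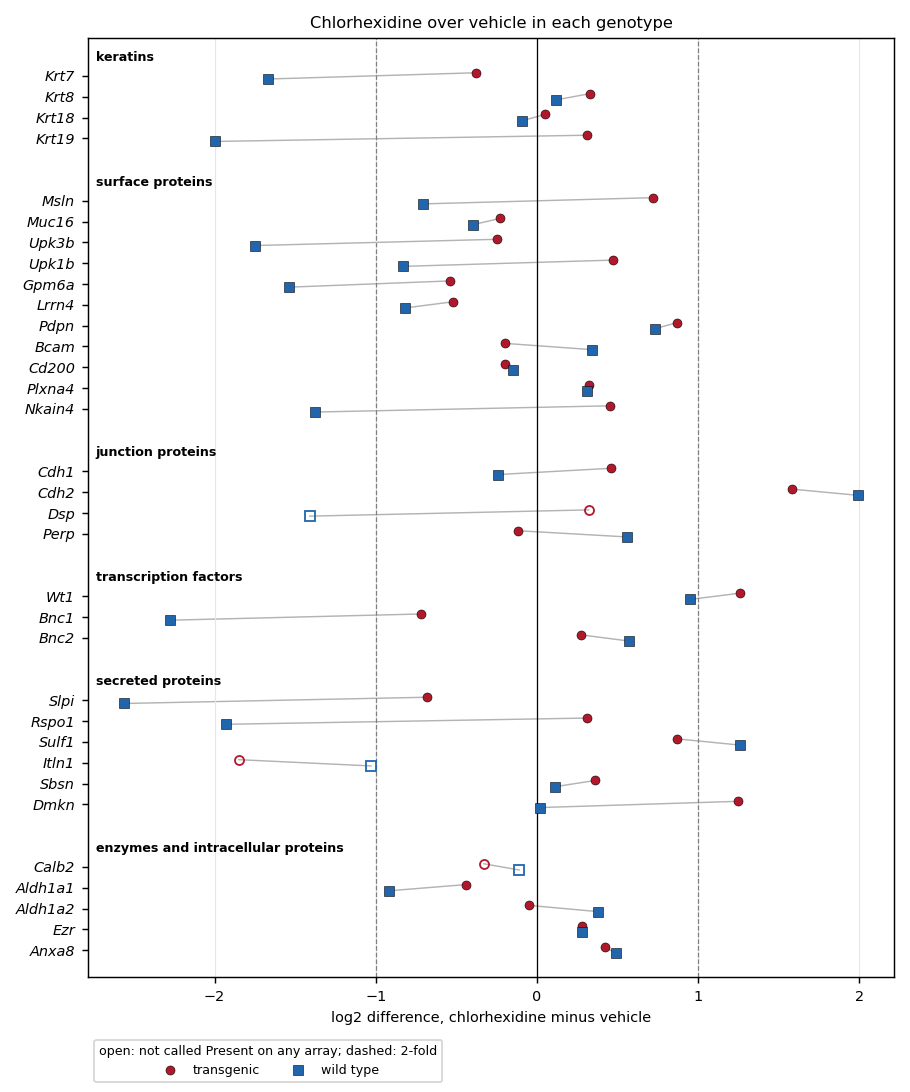
Log2 difference of chlorhexidine minus vehicle for each mesothelial gene, with circles for transgenic and squares for wild-type mice (1 array per group), dashed lines at 2-fold and open symbols for genes Present on no array. Slpi has the lowest wild-type value among genes Present on at least 1 array, at -2.56, against -0.68 in transgenic mice, and Cdh2 the highest in both genotypes, at 1.58 in transgenic and 1.99 in wild-type mice.

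Promoter sequences of 4 members are shown because they pair genes of unlike response: Slpi, Krt7 and Upk3b were called lower with chlorhexidine in wild type, and Krt18 was not called. The RefSeq table (GRCm38.p6) held 26 promoters of 22 members. The 250 bases before the transcription start were searched on both strands for CAGGTG, the E-box bound by Snail-family repressors. Matches on either strand are in capitals. The sequences run 5′ to 3′ toward the start.
Slpi (chr2:164356508-164356757, minus strand): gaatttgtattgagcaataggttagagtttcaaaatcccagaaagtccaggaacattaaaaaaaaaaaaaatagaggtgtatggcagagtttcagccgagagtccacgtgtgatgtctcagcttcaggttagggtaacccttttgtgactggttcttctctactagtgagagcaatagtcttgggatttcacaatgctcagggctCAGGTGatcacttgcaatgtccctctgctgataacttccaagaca
Krt7 (chr15:101412153-101412402, plus strand): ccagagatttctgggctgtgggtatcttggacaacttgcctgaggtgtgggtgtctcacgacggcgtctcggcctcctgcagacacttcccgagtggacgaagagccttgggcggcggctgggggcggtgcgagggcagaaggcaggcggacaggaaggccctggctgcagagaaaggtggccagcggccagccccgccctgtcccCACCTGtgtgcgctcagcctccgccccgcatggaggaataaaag
Upk3b (chr5:136038246-136038495, plus strand): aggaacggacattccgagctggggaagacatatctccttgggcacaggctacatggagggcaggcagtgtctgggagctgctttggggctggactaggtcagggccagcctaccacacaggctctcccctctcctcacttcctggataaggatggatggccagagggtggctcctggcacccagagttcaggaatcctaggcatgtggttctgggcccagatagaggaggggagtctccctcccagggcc
Krt18 (chr15:102027966-102028215, plus strand): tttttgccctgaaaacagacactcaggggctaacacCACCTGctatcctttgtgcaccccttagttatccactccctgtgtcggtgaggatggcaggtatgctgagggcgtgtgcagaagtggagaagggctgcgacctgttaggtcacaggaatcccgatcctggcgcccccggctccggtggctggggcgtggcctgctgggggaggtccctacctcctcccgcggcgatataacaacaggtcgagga
The motif was found in 6 of the 26 member promoters, those of Aldh1a1, Aldh1a2, Krt18, Krt7, Krt8 and Slpi, and in 17.2% of 32851 promoters of the same length. Among the keratins it was found before Krt7, Krt8 and Krt18. Krt19 was not among the 22 members with a promoter, so it was not searched. The motif was not found in the Upk3b window. The EGR and WT1 type motif GCGGGGGCG, searched on both strands, was found in 1 member promoter, that of Cd200, and in 2.57% of all promoters.

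Keratins form the intermediate filaments of simple epithelia. The 4 here formed a pair called lower in wild type (4.93% of all detected genes) and a pair with no call. Krt19 had a signal of 55.1 with chlorhexidine against 44.6 with vehicle in transgenic mice, and 24.6 against 98.7 in wild type. The wild-type vehicle array was the highest of the 4 and the wild-type chlorhexidine array the lowest, a 4.01-fold lower signal, beside 1.24-fold higher in transgenic mice. Set against transgenic vehicle instead, the Krt19 log2 difference of wild-type chlorhexidine was -0.86, short of the 2-fold rule. Krt7 had 25.9 against 33.8 in transgenic mice and 15.2 against 48.2 in wild type, and was Present on the wild-type vehicle array only. Its wild-type signal was at least 3.18-fold lower with chlorhexidine. Krt8 and Krt18, which pair to form filaments, stayed between 43.6 and 59.4 on all arrays, with log2 differences of 0.33 and 0.05 in transgenic mice and 0.12 and -0.09 in wild type.

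Surface proteins formed the largest role group, with 11 genes, and 8 of them lay below 0 with chlorhexidine in wild type and 6 in transgenic mice. Their median log2 difference was -0.20 in transgenic mice, with 0 genes called, and -0.71 in wild type, with 3 called lower (4.93% of all detected genes). Log2 differences below 0 were found for 49.9% of all detected genes in transgenic mice and 50.1% in wild type. Upk3b, a uroplakin and a widely used mesothelial marker, had 155 against 184 in transgenic mice and 56.4 against 189 in wild type. The wild-type chlorhexidine array stood apart below the other 3, at 3.36-fold lower than its vehicle, and a second Upk3b probe set gave log2 differences of -0.09 in transgenic mice and -1.08 in wild type. Gpm6a, a membrane glycoprotein of neurons and mesothelium, had 85.3 against 124 in transgenic mice and 60.5 against 176 in wild type. Both chlorhexidine arrays lay below both vehicle arrays for it, 1.46-fold in transgenic mice and 2.91-fold in wild type. A second Gpm6a probe set was lower by -1.27 and -1.42, so the 2 probe sets differ in whether the transgenic difference passes 2-fold. Nkain4, a membrane protein named for its link to the sodium pump, had 49.2 against 36.0 in transgenic mice, neither Present, and 20.9 against 54.4 in wild type, at least 2.61-fold lower.

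Mesothelin and its partner had no calls. Msln, a surface glycoprotein that binds Muc16, had 74.1 with chlorhexidine against 44.8 with vehicle in transgenic mice, and 42.2 against 68.8 in wild type. The transgenic pair was 1.65-fold higher and the wild-type pair 1.63-fold lower, and neither passed the 2-fold rule. Muc16, the membrane mucin of the mesothelial surface, had 33.8 against 39.7 in transgenic mice and 20.7 against 27.3 in wild type, 1.17-fold and 1.32-fold lower. The second uroplakin, Upk1b, was 1.39-fold higher in transgenic mice and 1.77-fold lower in wild type, and Lrrn4, a leucine-rich repeat protein, 1.43-fold and 1.77-fold lower. Both passed the 2-fold rule in wild type under quantile normalization, median centring and cyclic loess.

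The remaining surface proteins had no calls either. Podoplanin (Pdpn), which marks mesothelium, lymphatic endothelium and activated fibroblasts, had 499 against 273 in transgenic mice and 578 against 347.6 in wild type. It was higher with chlorhexidine by 1.83-fold in transgenic mice and 1.66-fold in wild type, short of the rule in each. Of 5 lymphatic endothelium markers 4 were measured, with median log2 differences of 0.35 in transgenic mice and 0.59 in wild type. Their summed signals, of which Lyve1 was the largest share, were 818 against 537 in transgenic mice and 703 against 538 in wild type. Flt4, a lymphatic growth factor receptor, was called higher in wild type, at least 2.80-fold. Their part in the Pdpn values was not tested. Bcam, a laminin receptor, ranged over the 4 arrays from 105 to 153, Cd200, an inhibitory immune ligand, from 143 to 168, and Plxna4, a semaphorin receptor, from 13.8 to 31.7.

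Of the 6 secreted proteins, 5 were detected. With chlorhexidine in wild type, 2 were called lower (4.93% of all detected genes) and 1 higher (8.22%). In transgenic mice 1 was called higher (3.81%). Slpi, a protease inhibitor of epithelial surfaces, had 341.5 against 547 in transgenic mice and 116 against 681 in wild type. All 4 arrays were Present, and the order ran from wild-type chlorhexidine at the bottom through transgenic chlorhexidine to the vehicle arrays. The signal was 1.60-fold lower with chlorhexidine in transgenic mice and 5.88-fold lower in wild type. Rspo1, a secreted amplifier of Wnt signalling, had 57.8 against 46.7 in transgenic mice and 18 against 68.7 in wild type. Only the wild-type chlorhexidine array was low, at 3.82-fold below its vehicle, while the transgenic pair was 1.24-fold higher. Sulf1, an extracellular enzyme that removes sulfate from heparan sulfate, had 359.8 against 196 in transgenic mice and 431 against 180.4 in wild type. It was 1.83-fold higher in transgenic mice and 2.39-fold higher in wild type, and a second probe set gave log2 differences of 1.19 and 1.56, past the rule in both. The wild-type call was lost with probe sets averaged, at 0.90.

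Dmkn and Sbsn, secreted proteins of stratified epithelium that lie on the same chromosome and are also found in mesothelium, gave another pattern. Dmkn had 100.5 against 42.2 in transgenic mice and 37.5 against 37.0 in wild type. The transgenic chlorhexidine array alone was high, 2.38-fold above its vehicle, while the wild-type pair differed by 1.01-fold. Sbsn had 161.5 against 126 in transgenic mice and 111 against 103 in wild type, 1.28-fold and 1.08-fold higher. A second Sbsn probe set, Present on all 4 arrays, gave log2 differences of 0.75 and -0.16. With probe sets averaged Sbsn was called higher in transgenic mice, at 1.45. That mean includes a probe set Absent on all 4 arrays, at 3.24. Of 12 skin keratinocyte markers, 11 were measured and 4 were Present on at least 1 array. The 11 summed to 188 against 166 in transgenic mice and 129 against 168 in wild type. Among them Krt14, the basal keratin of skin, was Present on the transgenic chlorhexidine array only, at 35.6. It was called higher there, at least 4.14-fold over transgenic vehicle and at least 4.46-fold over wild-type chlorhexidine. That signal barely passed the 25th percentile of Present probe sets on the array, 35.4. Krt10 and Trp63 were Present on all 4 arrays, with log2 differences of -0.27 and 0.03 in transgenic mice and -0.82 and 0.02 in wild type. Krt5 was Present on the transgenic vehicle array only. Krt15, Krt1, Krtdap, Dsc3, Lor, Ivl and Sfn were Absent throughout. The part of skin in the Dmkn values was not tested.

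Of the 3 transcription factors, 1 was called lower in wild type (4.93% of all detected genes) and 1 higher in transgenic mice (3.81%). Wt1, the regulator of mesothelial development, had 52.3 against 21.8 in transgenic mice and 60.7 against 31.5 in wild type, Present on all 4 arrays. Both chlorhexidine arrays lay above both vehicle arrays, by 2.40-fold in transgenic mice and 1.93-fold in wild type. The wild-type log2 difference of 0.95 was just short of the rule and was 1.20, called higher, with the deposited scaling, which made 3 members called higher there. Bnc1, a zinc finger protein of mesothelium and other epithelia, had 36.3 against 59.7 in transgenic mice and 18.3 against 89.2 in wild type. It was 1.64-fold lower in transgenic mice and 4.87-fold lower in wild type, with both chlorhexidine arrays below both vehicle arrays. Its relative Bnc2, which is also expressed in fibroblasts, ranged from 41.9 to 67.2, 1.21-fold and 1.49-fold higher with chlorhexidine.

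Among the 4 junction genes, 1 cadherin was called with chlorhexidine in both genotypes. Cdh2, N-cadherin, had 37.1 against 12.4 in transgenic mice and 67.1 against 16.9 in wild type, Present on all 4 arrays. Both chlorhexidine arrays were above both vehicle arrays, by 3.00-fold in transgenic mice and 3.98-fold in wild type. A second Cdh2 probe set gave log2 differences of 0.72 and 2.02, so the transgenic call rests on 1 of 2 probe sets. With probe sets averaged the transgenic difference was 1.15, past 2-fold, but too dim for a call. The signal of 37.1 lay just above the 25th percentile of Present probe sets on that array, 35.4. Cdh2 was the only member called higher in both genotypes, and 3.03% of detected genes were. Cdh1, E-cadherin, was near detection, with 11.1 against 8.07 in transgenic mice and 10.1 against 11.9 in wild type, and was Present on the wild-type vehicle array only. Perp, a desmosome-associated membrane protein, had 84.1 against 91.3 in transgenic mice and 50.1 against 33.9 in wild type, 1.09-fold lower and 1.48-fold higher with chlorhexidine. The wild-type vehicle array was the lowest of its 4.

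Of the enzymes and intracellular proteins, 0 of 4 detected genes passed the rule in either genotype. Of all detected genes, 3.81% were called higher and 1.40% lower in transgenic mice, and 8.22% and 4.93% in wild type. Aldh1a1, which makes retinoic acid, had 1347 against 1827 in transgenic mice and 813 against 1544 in wild type, 1.36-fold and 1.90-fold lower. Under median centring it was called lower in wild type, at -1.16. Aldh1a2, the main retinoic acid enzyme of mesothelium, ranged from 63.7 to 83.0. Ezr, which links membrane to actin, was 1.21-fold higher in both genotypes, and Anxa8, a calcium-dependent membrane binder, 1.33-fold and 1.40-fold higher. With probe sets averaged, Anxa8 was called higher in transgenic mice, at 1.19.

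Under chlorhexidine, several mesothelial genes were higher in transgenic than in wild-type peritoneum. Between the chlorhexidine arrays, 5 of the 30 detected genes were called higher in transgenic mice (0.784% of detected genes) and 0 lower (0.964%), with a median log2 difference of 0.52 against -0.03 over all detected genes. Of the 30, 10 lay below 0, where 53.2% of detected genes did. The 5 were Rspo1 at 3.21-fold, Slpi at 2.95-fold, Upk3b at 2.74-fold, Dmkn at 2.68-fold and Krt19 at 2.24-fold, with Bnc1 next at 1.98-fold, which was called under quantile normalization, median centring and cyclic loess. For Dmkn the transgenic chlorhexidine array was the highest of the 4 arrays, and for the other 4 genes the wild-type chlorhexidine array was the lowest. These calls were not all stable: Upk3b was at 0.76 with its second probe set, and with a pseudocount of 32 Krt19 was at 0.62, Rspo1 at 0.84 and Dmkn at 0.93, none of them called. Of 5 adipocyte markers, 4 lay above 0 between these arrays, with a median of 0.79. Retn, the hormone resistin, was called 2.50-fold higher in transgenic mice. Lep, the hormone leptin, lay the other way at -3.0, Absent on both arrays. The part of adipocytes in the member values was not tested. The wild-type chlorhexidine array also enters the wild-type treatment comparison, so the results are not separate evidence.

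**Figure D3:**
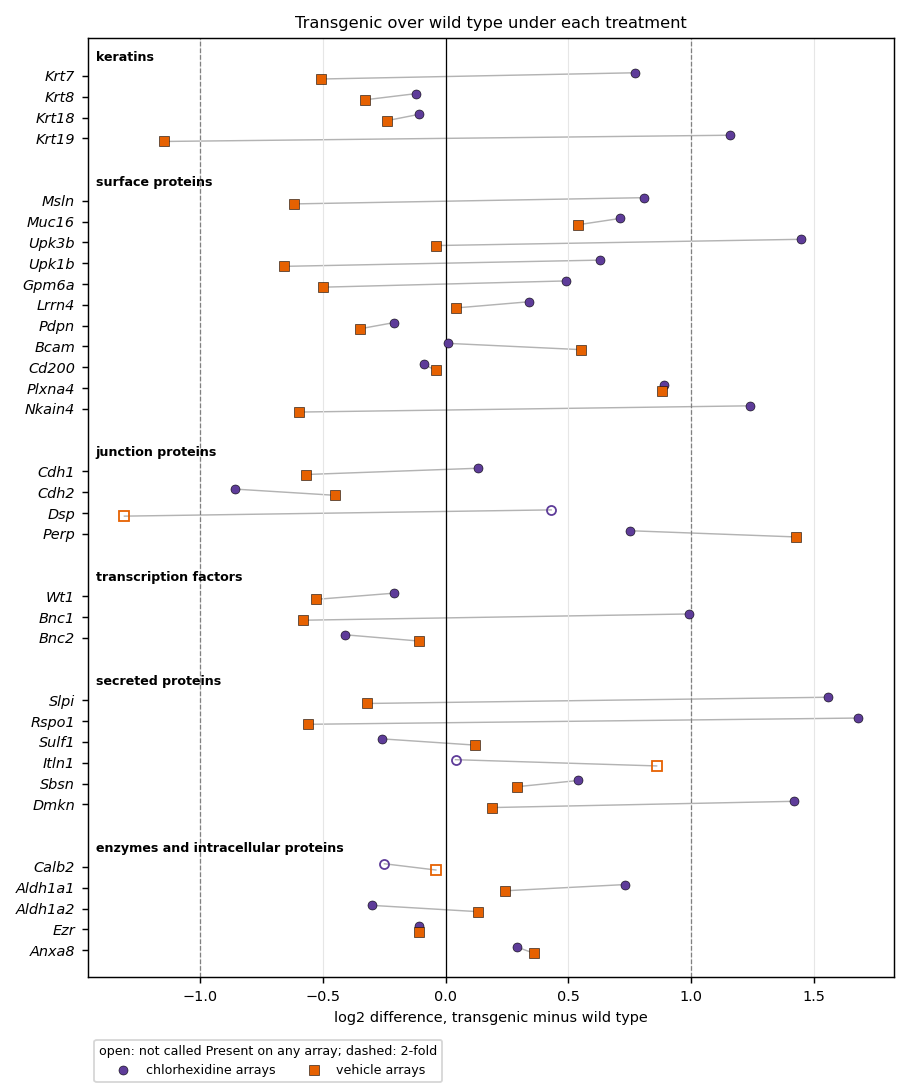
Log2 difference of transgenic minus wild-type signal for each mesothelial gene, with circles for the chlorhexidine arrays and squares for the vehicle arrays (1 array per group); open symbols mark genes Present on no array and dashed lines 2-fold. Rspo1, Slpi, Upk3b, Dmkn and Krt19 lie beyond 2-fold under chlorhexidine, as does Nkain4 (1.24), which was Present on neither of those arrays. Under vehicle Perp (1.43) and Krt19 (-1.15) do so, as does Dsp, which was Present on no array.

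Under vehicle the genotypes were closer. Perp was called higher in transgenic mice, 2.69-fold (0.957% of detected genes), and Krt19 lower, 2.21-fold (0.502%). The Krt19 call was lost with the deposited scaling, at -0.73, and the pseudocount, at -0.77, and the Perp call with the pseudocount, at 0.90. The median of the 30 genes was -0.18, against -0.04 over all detected genes, and 19 of 30 lay below 0, where 55.4% of detected genes did. Subtracting the wild-type chlorhexidine difference from the transgenic one gave a median of 0.27 over the 30 genes and 0.02 over all detected genes. It was above 0 for 21 of 30 genes, against 51.2% of detected genes. It was highest for Krt19 at 2.31, Rspo1 at 2.24, Slpi at 1.88 and Nkain4 at 1.84, and lowest for Perp at -0.68. For Krt19 the gap lay in both treatments, at 1.16 between the chlorhexidine arrays and -1.15 between the vehicle arrays. For Upk3b it lay almost wholly under chlorhexidine, at 1.45 and -0.04, and for Slpi mostly there, at 1.56 and -0.32.

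The order of the 4 arrays is given for the 30 detected genes beside that of all detected genes, a summary chosen after the values were seen. The lowest array was transgenic chlorhexidine for 1 gene, Cd200 (17.9% of detected genes), transgenic vehicle for 8 (24.2%), wild-type chlorhexidine for 13 (31.5%) and wild-type vehicle for 8 (26.4%). The highest array was transgenic chlorhexidine for 5 (13.9%), transgenic vehicle for 5 (18.6%), wild-type chlorhexidine for 8 (34.8%) and wild-type vehicle for 12 (32.6%). For 9 genes wild-type chlorhexidine was lowest and wild-type vehicle highest, where 18.4% of detected genes had that order.

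Because the wild-type vehicle array stood apart, the wild-type chlorhexidine array was also set against the transgenic vehicle array. There 6 members were called lower (3.57% of detected genes), Slpi at -2.24, Upk3b at -1.71, Bnc1 at -1.70, Rspo1 at -1.37, Aldh1a1 at -1.17 and Gpm6a at -1.04. Krt7 passed 2-fold in size, at -1.16, but was not called because it was Absent on the transgenic vehicle array. Krt19 and Nkain4 were short of 2-fold, at -0.86 and -0.79. Called higher were 4 members (7.23%), Cdh2 at 2.44, Wt1 at 1.48, Sulf1 at 1.13 and Pdpn at 1.08. With the wild-type vehicle array in place of the transgenic one, transgenic chlorhexidine peritoneum had 2 members called lower, Bnc1 at -1.30 and Gpm6a at -1.05 (2.45% of detected genes), and 3 higher, Dmkn at 1.44, Perp at 1.31 and Cdh2 at 1.14 (5.17%). Wt1 was not called there, at 0.73.

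Marker lists of other cell types differed with chlorhexidine as well. All 5 measured adipocyte markers lay below 0 with chlorhexidine in both genotypes, with summed signals of 8876 against 11983 in transgenic mice and 6299 against 11755 in wild type. Of these, 2 were called lower in transgenic mice (1.40% of detected genes) and 4 in wild type (4.93%). Adipoq, the adipocyte hormone adiponectin, had 2434 against 3949 in transgenic mice and 1409 against 3865 in wild type, so its lowest array was also the wild-type chlorhexidine one. Lep went differently, with 3.03 against 353.9 in transgenic mice and 24.3 against 169.4 in wild type. Its lowest array was the transgenic chlorhexidine one, and it was Absent on both chlorhexidine arrays. The 4 measured B cell markers summed to 177 against 1555 in transgenic mice and 99 against 3484 in wild type. Their 4 genes were called lower in both genotypes. Of 8 fibroblast markers, all lay above 0 in both genotypes, with medians of 0.68 in transgenic mice and 0.97 in wild type and sums of 33325 against 20359 and 38771 against 20251. The 8 skeletal muscle markers had medians of 0.09 and -0.23. How much these tissues contribute to the mesothelial values was not tested.

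**Figure D4:**
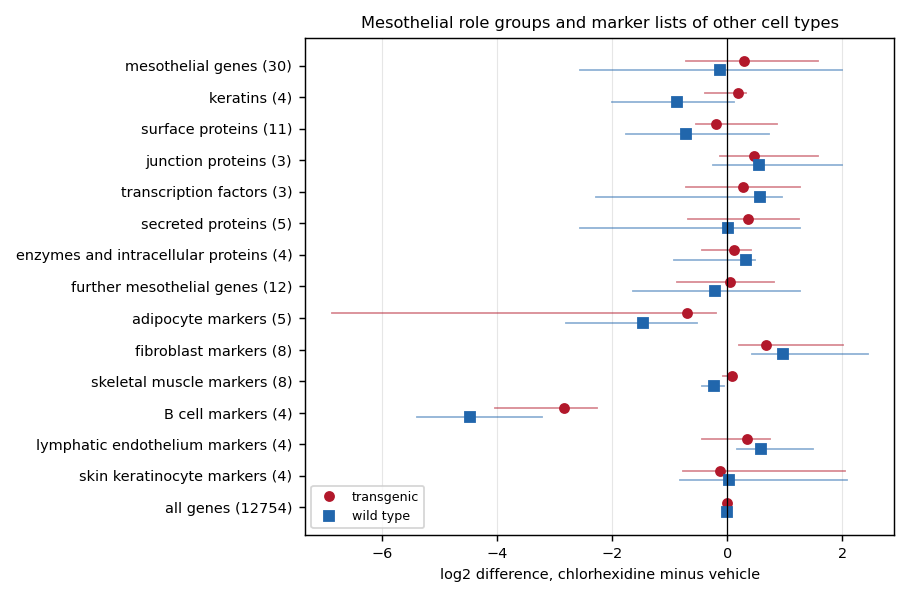
Median log2 difference (points) and lowest to highest gene (lines) of chlorhexidine minus vehicle for mesothelial role groups, further mesothelial genes and marker lists, with circles for transgenic and squares for wild-type mice; numbers in brackets count genes Present on at least 1 array, and no line is drawn for all genes. Keratins have medians of 0.18 in transgenic and -0.88 in wild-type mice, adipocyte markers -0.70 and -1.46, and fibroblast markers 0.68 and 0.97.

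Genes that work with the members gave further context. Of 15 further mesothelial genes, 12 were detected, with medians of 0.05 in transgenic mice and -0.22 in wild type. In wild type 1 was called lower (4.93% of all detected genes), the growth factor Fgf1, at 1.84-fold in transgenic mice and 3.11-fold in wild type. Called higher there was 1 (8.22%), the receptor-like Ildr2, at 1.76-fold and 2.40-fold. In transgenic mice 0 were called, where 3.81% of all detected genes were called higher and 1.40% lower. Cldn15, a claudin of mesothelial and gut junctions, was 1.13-fold and 1.96-fold lower. The mesenchymal transition factors had Snai2, a repressor of epithelial genes, at 110 against 18.9 in transgenic mice and 246 against 23.6 in wild type. It was called higher in both, at 5.81-fold and 10.4-fold. Its probe set, like that of Ildr2, is of a kind that can cross-hybridise, and no other probe set of either was compared. Snai1, a relative of Snai2, had 24.7 against 9.74 and 34.9 against 13.8, too dim for a call and Marginal on the transgenic vehicle array. Vim was 1.33-fold and 1.57-fold higher. Of 7 such factors, 1 was called higher and 0 lower in each genotype, beside the same shares of all detected genes.

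Partner lists of single members held few calls. Over all detected genes, 3.81% were called higher and 1.40% lower in transgenic mice, and 8.22% and 4.93% in wild type. Of 7 detected retinoic acid genes, the carrier protein Crabp2 was called higher in wild type, at 61.0 against 1.29, at least 20.8-fold, and was Present on that chlorhexidine array only. Rxra, a retinoid receptor, was 1.14-fold lower in transgenic mice and 1.96-fold lower in wild type. Of 5 detected R-spondin relatives and receptors, 0 were called in either genotype, and the receptor Lgr4 was 1.17-fold lower in transgenic mice and 1.29-fold higher in wild type. Of 6 detected desmosome and adherens junction partners, Ctnnd1 was called higher in wild type, at 2.02-fold, beside 1.20-fold in transgenic mice. The ezrin relative Msn was 1.42-fold higher in transgenic mice and 2.10-fold in wild type. The 3 uroplakins outside the set, Upk1a, Upk2 and Upk3a, were Absent on all 4 arrays.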

How the data were processed

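Per the labels' protocols, peritoneal RNA was purified on RNeasy Mini columns and labelled with the GeneChip 3-prime IVT kit. The deposited values are signals, an intensity on a linear scale per probe set, with the authors' detection call and detection p-value, per the file headers. How the authors computed and scaled signals is not given in the sources used here. Raw scans were not used. The deposited series table held the same intensity values, with 0 differing.

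Of 45037 probe sets without the 64 controls, 34945 had 1 gene symbol in the platform annotation, 932 several and 9160 none there. Only those with 1 symbol were named, and 34741 symbols were matched by Entrez identifier to RefSeq (GRCm38.p6). Arrays were multiplied to a common 2% trimmed mean, by 1.01 (transgenic, chlorhexidine), 0.877 (transgenic, vehicle), 0.984 (wild type, chlorhexidine) and 1.17 (wild type, vehicle). Signals under 0.1 were set to 0.1 and log2 taken. Each gene was represented by the probe set brightest on average (mean log2 over the arrays). The 2-fold rule used 12754 genes Present on at least 1 array. A lower bound divides the brighter signal by the dim signal or by the dimmer array's lowest Present signal, whichever is greater.

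All 33 members were named. Signals on each array are given for members called in any comparison and for Msln, Muc16, Upk3b, Krt19, Wt1 and Cdh1, with others added after their values were seen. Of each partner list up to 4 genes were named, by the absolute size of the mean of the transgenic and wild-type chlorhexidine differences. The members and lists were chosen with earlier results of these data known. Alternatives were other scalings (quantile, median, deposited, cyclic loess with limma 3.58.1 in R 4.3.3), a pseudocount of 32, mean probe sets, no cross-hybridising probe sets, no dim filter, other thresholds and the other vehicle array. Python 3.11.15 with pandas 2.3.3 was used.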

Additional observations from a re-analysis of the deposited data

Results flagged for a closer look

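Of the 30 detected genes, 10 went opposite ways with chlorhexidine in the genotypes, against 27.2% of all detected genes, each from 1 array per group, and the difference was not tested. As the transgenic minus the wild-type log2 difference, the value was 2.31 for Krt19, 2.24 for Rspo1, 1.84 for Nkain4, 1.43 for Msln, 1.30 for Upk1b, 0.70 for Cdh1 and 0.13 for Krt18, which were above 0 in transgenic and below 0 in wild-type mice. It was -0.68 for Perp, -0.54 for Bcam and -0.43 for Aldh1a2, which went the other way. Of the 10, Krt19, Nkain4 and Rspo1 were called in wild type, and none in transgenic mice.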

How the results depend on the processing

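No paired analysis was possible because each group holds 1 array and the labels give no replicate numbers. With the deposited scaling, the members' median became 0.13 for chlorhexidine in wild type (all detected genes 0.25), 0.24 for the vehicle arrays (all 0.37) and -0.18 for the difference of the chlorhexidine differences. The last lies beside -0.20 and 0.25 for all genes in transgenic and wild-type mice. The count of members called higher in wild type was 1 with mean probe sets, 4 at 1.5-fold, 1 at 3-fold and 4 against the transgenic vehicle array. In transgenic mice the count higher was 0 with the pseudocount, 6 at 1.5-fold and 0 at 3-fold, and the count lower was 1 without cross-hybridising probe sets (Gpm6a), 2 at 1.5-fold and 2 against the wild-type vehicle array. Between the chlorhexidine arrays, the count higher was 2 with the pseudocount, 10 at 1.5-fold and 1 at 3-fold, and the count lower 1 at 1.5-fold. Between the vehicle arrays, the count higher was 0 with the pseudocount and at 3-fold. The count lower there was 0 with the deposited scaling, the pseudocount and at 3-fold, and 4 at 1.5-fold. The count lower with chlorhexidine in wild type ran from 6 to 12 over its alternatives. Krt19, Upk3b, Gpm6a, Bnc1, Slpi and Rspo1 were called lower there under all 7 alternatives of scaling and gene value, and Krt7 and Nkain4 were not called with the pseudocount. No called member changed sign under these 7. The cause of these shifts was not tested beyond what each alternative changes by construction.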

Other observations

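Second probe sets Present on at least 1 array existed for 8 members, 10 probe sets in all. With chlorhexidine they had the sign of the probe set used in 9 of 10 cases in transgenic mice and 8 of 10 in wild type. For Anxa8 the second probe set gave log2 differences of 1.96 in transgenic mice and 1.23 in wild type, beside 0.42 and 0.49 for the probe set used. For Upk1b 2 other probe sets gave -1.02 and -1.05 in wild type and 1 more gave 0.19.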
